A study of Homo sapiens and Mus musculus with 16 samples.

Results

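The RUNX factor loci were the genes of the 3 RUNX transcription factors and of their shared partner CBFβ, RUNX1, RUNX2, RUNX3 and CBFB in human cells and Runx1, Runx2, Runx3 and Cbfb in mouse cells. Members were all accessible regions that overlapped the GENCODE gene body with 50 kb on each side. This gave 423 regions of 364071 in all 4 lists, with 151 of 118107 in control, 105 of 97047 in HNF4G-KO, 77 of 68074 in the KPC primary tumor line and 90 of 80843 in the KPC mets line. The genes were chosen by measured values of these same lists, the overlap of regions between the lists of a pair and their scores. It was known by then that many regions near RUNX1 were in the control list only. All counts, shares and score changes below are therefore descriptions, and none was tested.

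ATAC–seq had been performed on 16 samples, 4 replicates in each of 4 groups. HPAF-II is an established human pancreatic adenocarcinoma cell line. Its control cells carried the label genotype WT and had received Cas9, and its HNF4G-KO cells had received guides against the nuclear receptor gene HNF4G and were a pool of edited clones. The KPC groups were untreated mouse cell lines labelled genotype WT, grown from a primary tumor and from a liver metastasis of the KPC model, a mouse model of pancreatic cancer. The study calls these lines matched and isogenic, and each line stands for its own origin only. Each group was held as 1 list of regions with a score per region, so there was no value per replicate and no replicate check of any difference, and the depth behind each list is unknown. All 5 epithelial marker genes examined (KRT8, KRT18, KRT19, EPCAM and CDH1) had a region within 1 kb of a start site in every list, and the leukocyte genes PTPRC and CD3E had none in any list. The window of the targeted gene, HNF4G, had 13 regions in control and 9 in HNF4G-KO. Accessibility does not read the frameshift itself, so these counts do not check the knockout.

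RUNX proteins bind DNA through a Runt domain that is nearly identical among the paralogs. CBFβ touches no DNA but strengthens the binding of each of them. RUNX1 is best known for blood stem cell formation, RUNX2 for bone formation and RUNX3 for T cells, sensory neurons and gastric epithelium. Each RUNX gene is read from a distal promoter, P1, and a proximal promoter, P2, and the resulting proteins differ at their N terminus.

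The promoter sequences are shown because P1 and P2 differ in their RUNX matches and base composition. They are from RefSeq (GRCh38.p14), 250 bases up to the start site and in the direction of the gene, and capitals mark each match to the RUNX sequence TGTGGTT on either strand. RUNX3 P1 was read from the minus strand of chr1:24965011-24965260, RUNX2 P1 from the plus strand of chr6:45328080-45328329 and RUNX1 P2 from the minus strand of chr21:34888700-34888949. RUNX1 P1 and CBFB had no entry.
RUNX3 P1: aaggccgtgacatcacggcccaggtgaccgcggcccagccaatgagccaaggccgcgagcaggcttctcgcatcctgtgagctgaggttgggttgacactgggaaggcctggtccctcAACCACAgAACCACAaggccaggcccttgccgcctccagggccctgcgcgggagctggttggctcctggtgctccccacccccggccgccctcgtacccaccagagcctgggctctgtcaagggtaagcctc
RUNX2 P1: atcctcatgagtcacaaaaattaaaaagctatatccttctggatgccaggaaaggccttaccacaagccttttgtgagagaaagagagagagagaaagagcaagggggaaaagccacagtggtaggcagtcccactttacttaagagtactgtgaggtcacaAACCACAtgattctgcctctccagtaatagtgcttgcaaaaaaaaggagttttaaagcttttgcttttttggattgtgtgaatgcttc
RUNX1 P2: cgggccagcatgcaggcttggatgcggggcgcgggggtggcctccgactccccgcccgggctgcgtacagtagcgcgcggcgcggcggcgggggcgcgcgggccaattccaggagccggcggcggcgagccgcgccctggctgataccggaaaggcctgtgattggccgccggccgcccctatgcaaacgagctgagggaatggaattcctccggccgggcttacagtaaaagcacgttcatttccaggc

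RUNX3 P1 held 2 RUNX matches with 1 base between them, 132 and 124 bp upstream of the start site. RUNX2 P1 held 3 matches in the whole window of 300 bases, 1 at 88 bp upstream and a pair at 15 and 23 bp downstream, again with 1 base between them. Of the 35116 human promoters of the same length, 4.27% held at least 1 match. The pair was searched for after its letters had been seen, and 2 promoters held it, those of RUNX2 and RUNX3. None of the 3 P2 windows (RUNX1, RUNX2 and RUNX3) held a match, and their G and C content was 72.0 to 76.0%, against 66.3% at RUNX3 P1 and 42.7% at RUNX2 P1. A region of the KPC lists lay over the same pair at mouse Runx1 P1. It is set here beside the pair of human RUNX2 P1, each as 30 bases in the direction of the gene. RUNX2 P1 is from the plus strand of chr6:45328337-45328366 (RefSeq, GRCh38.p14) and Runx1 P1 from the minus strand of chr16:92826026-92826055 (GRCm38).
RUNX2 P1 pair: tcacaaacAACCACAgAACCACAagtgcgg
Runx1 P1 pair: tcataaacAACCACAgAACCACAagttggg

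The promoters of the 4 genes differed widely in accessibility. Promoter regions were those within 1 kb of the start of a coding transcript, and the level of a region is given as its score percentile, the share of regions of its own list with a lower score. A region was found in 16 of 28 combinations of promoter and list. The 12 without a region were RUNX2 P1, RUNX3 P1 and RUNX3 P2 in both HPAF-II lists and their mouse counterparts in both KPC lists. CBFB and Cbfb, with a single promoter each, had the strongest regions within 1 kb. At CBFB, chr16:67028470-67029164 stood at percentile 75.4 in control and its partner at 84.3 in HNF4G-KO. At Cbfb, chr8:105170045-105171867 was 1823 bp wide and stood at 89.6 in the primary tumor and 80.8 in mets.

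RUNX1 P2 was open in every list. In control a single region of 2383 bp, chr21:34888020-34890402, stood at 68.6, and HNF4G-KO had 3 regions in its place, at 43.6, 73.1 and 73.1. At mouse Runx1 P2 the strongest region, chr16:92697208-92698948, stood at 60.9 in the primary tumor and its partner at 65.6 in mets. Within 1 kb, P1 of RUNX1 was weaker. In HPAF-II no region covered its start site, and the nearest, chr21:35048236-35048518 in the intron behind it, stood at 37.4 in control and 34.8 in HNF4G-KO. Within 2 kb the order of P1 and P2 turned in HPAF-II, where chr21:35051270-35051902, upstream of P1, stood at 86.4 in control and its partner at 78.5 in HNF4G-KO. In KPC the region with the pair of RUNX matches, chr16:92825845-92826205, covered the P1 start site and stood at 10.0 in the primary tumor and 32.8 in mets. Besides the pair it held a match farther downstream, 194 bp from the start site. Within 2 kb the strongest region at mouse P1 was another, at 54.7 in the primary tumor and 51.7 in mets. RUNX2 P2 was weak in both species. Its region chr6:45421977-45422461 stood at 25.5 in control and its partner at 35.6 in HNF4G-KO. At mouse Runx2 P2 the strongest primary tumor region, chr17:44735801-44736267, stood at 22.5 and its partner at 6.05 in mets. The strongest mets region there was another, chr17:44734481-44734788, at 23.3.

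Across the HPAF-II loci, control had many more regions of its own than HNF4G-KO, and most of them were at RUNX1. A shared region had 1 bp or more in common with a region of the partner list. At the 4 loci together, 55 of 151 control regions were control-only, or 36.4% (Wilson 95% interval 29.2 to 44.3, counting error only), against 25.0% of the whole control list. In HNF4G-KO 6 of 105 regions were KO-only, or 5.71% (2.64 to 11.9), against 6.76% of its whole list. RUNX1 alone held 44 of the 55 control-only regions. Without it the share at the other 3 loci was 22.0% (11 of 50), below that of the whole list.

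**Figure D1:**
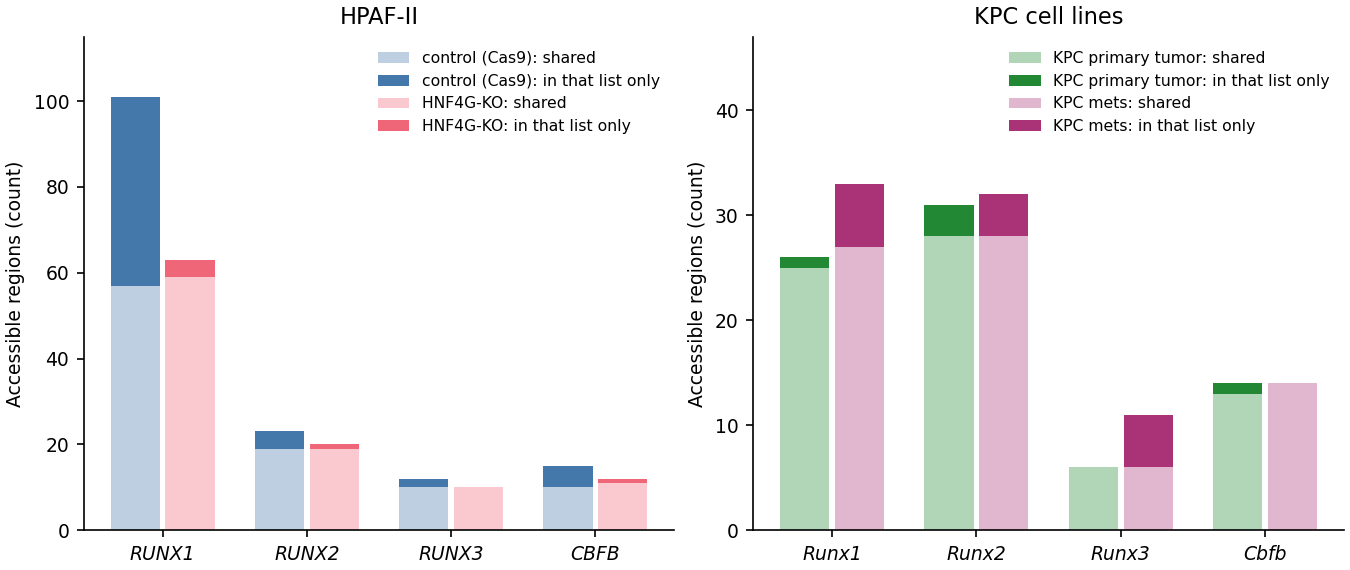
Number of accessible regions at each locus in each list, HPAF-II on the left and KPC on the right, with the regions found in that list only in the darker shade on top of the shared ones. RUNX1 had 101 regions in control and 63 in HNF4G-KO, and Runx3 had 6 in the primary tumor and 11 in mets.

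RUNX1 had 101 regions in control and 63 in HNF4G-KO. The control-only share was 43.6% (34.3 to 53.3), and 936 of the 16711 protein-coding genes with 5 or more regions in the same kind of window had a higher share. None of 20033 protein-coding genes had more control-only regions than its 44. The RUNX1 gene body is 1217 kb long in GENCODE because 1 coding transcript starts far upstream, 955 kb before P1, and a long window collects many regions. With the gene body limited to the transcripts of the basic set, from P1 to the 3′ end, the window held 44 control regions, of which 18 were control-only, or 40.9%. The share was thus similar with and without the long upstream stretch. Among the strongest regions of each list, as many as 90% of the smaller list, 26.0% of RUNX1 control regions (19 of 73) were control-only, against 13.8% of the whole list cut in that way.

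Most control-only regions at RUNX1 were narrow and weak, but some reached the middle of the list. Their median width was 258 bp, against 580 bp for the shared regions, and their median percentile was 21.2, against 17.9 for all control-only regions. The 3 highest all lay upstream of P1 in the intron of the long transcript, chr21:35340286-35340591 at percentile 56.5, chr21:35963880-35964256 at 54.7 and chr21:35178841-35179157 at 51.8, 291 kb, 915 kb and 130 kb from P1. These were also the 3 control-only regions in the upper 50% of the list, where 1.86% of all control regions were control-only. The most control-only regions in a row were 5, from chr21:35801169 to chr21:35920774. The 4 KO-only regions of RUNX1 stood between 2.35 and 8.54. They were chr21:35585872-35586078, chr21:35664360-35664570, chr21:35831945-35832145 and, 35.5 kb downstream of P2, chr21:34853088-34853287.

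Within RUNX1 the shared regions differed between the stretch upstream of P1 and the gene from P1 onward. Upstream of P1, 30 of 32 shared regions had a lower percentile in HNF4G-KO than in control, with a median change of -9.26 points. From P1 to the 3′ end, 10 of 21 were lower and 11 higher, with a median of 1.59 points. Of all 88632 shared control regions 62051 were lower and 26581 higher, with a median of -4.65 points. The zero of this scale is therefore itself shifted between lists of unequal size. With percentiles taken among shared regions alone, the median of all shared regions was 0.676. The upstream stretch then had a median of -4.56 (22 of 32 lower) and P1 to the 3′ end a median of 8.61 (5 of 21 lower). How many regions of the whole list were lower was not counted on that scale. In the lists cut to like size the medians were -5.40 and 12.2, against 0.252 overall.

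The strongest region of the locus, chr21:35217322-35218209, lay 168 kb upstream of P1 and changed little, from percentile 99.6 in control to 98.5 in HNF4G-KO. The 7 largest differences toward lower percentiles were all in the upstream stretch. The largest of them, at chr21:35664677-35665172, stood at 76.4 in control and 33.2 in HNF4G-KO, a difference of -43.3 points, and a KO-only region lay next to it. The largest difference in the other direction was downstream of P2, at chr21:34846565-34846901, which stood at 43.9 in control while its HNF4G-KO partner stood at 88.5. That partner, chr21:34845382-34846914, spans this region and its stronger neighbor at 84.3, so a merge of regions goes with the 44.6 points. The next in that direction was chr21:34878591-34878862, 9.96 kb downstream of P2, at 36.1 in control and 57.9 in HNF4G-KO.

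**Figure D2:**
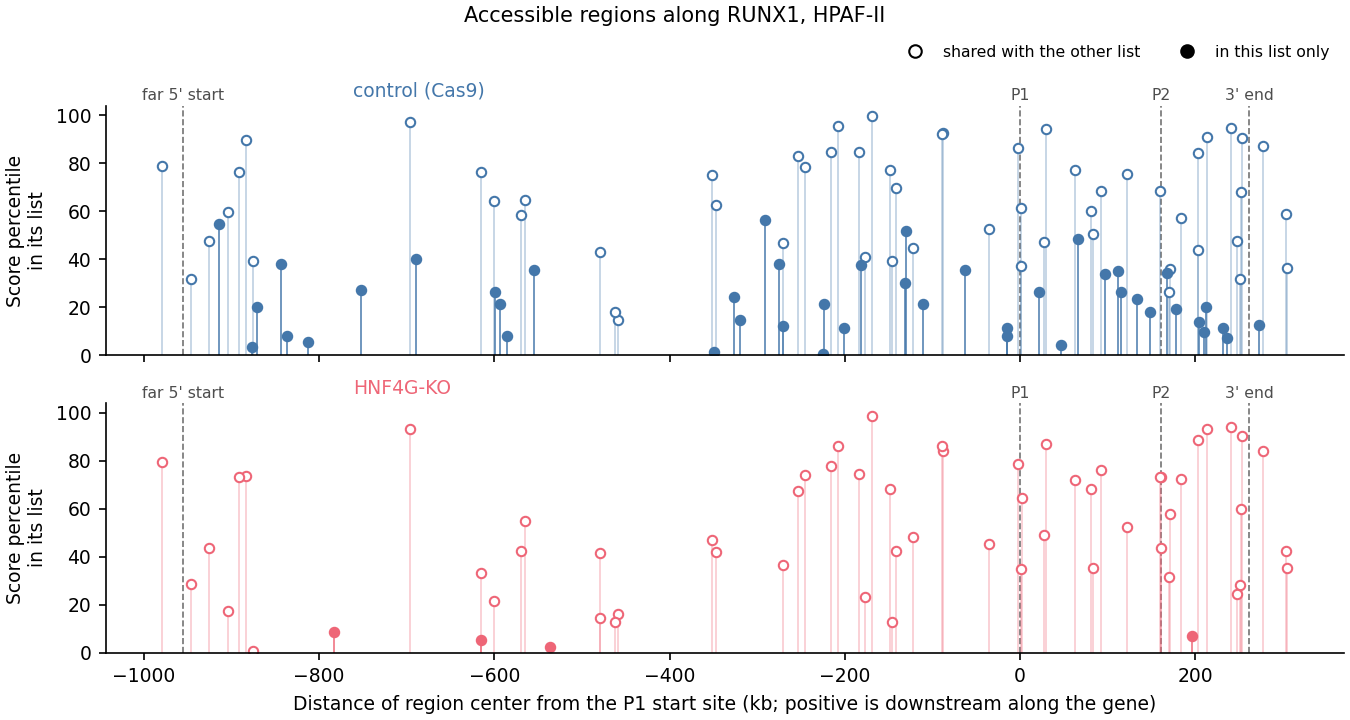
Each accessible region at RUNX1 by the distance of its center from the P1 start site (kb, positive along the gene) and its score percentile, control above and HNF4G-KO below, with filled points for regions found in that list only. Dashed lines mark the far 5′ start, P1, P2 and the 3′ end, and control-only regions (44, against 4 KO-only) are spread over most of the length.

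The RUNX1 control-only region chr21:35920500-35920774, at percentile 20.2 in the control list, is printed because it was the only control-only region at the 4 loci with the HNF4 sequence CAAAGTCCA, and it held a RUNX match too. It lies 871 kb upstream of P1 in the intron of the long transcript. The plus strand of hg38 is given, with both matches in capitals, each in the reverse orientation.
RUNX1 upstream region: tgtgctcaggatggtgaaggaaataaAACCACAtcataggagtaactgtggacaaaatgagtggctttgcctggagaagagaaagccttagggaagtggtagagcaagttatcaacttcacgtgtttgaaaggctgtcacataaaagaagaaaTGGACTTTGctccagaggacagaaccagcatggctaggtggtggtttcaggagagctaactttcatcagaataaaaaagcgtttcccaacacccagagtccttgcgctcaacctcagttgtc

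RUNX2 had 23 regions in control and 20 in HNF4G-KO. Of the control regions 4 were control-only, or 17.4% (6.98 to 37.1), below the 25.0% of the list. They were chr6:45608362-45608905 at percentile 31.6, chr6:45436874-45437088 at 27.3, chr6:45590257-45590485 at 10.4 and, beside P2, chr6:45423129-45423419 at 6.99. The single KO-only region, chr6:45532783-45533121, stood at 2.35. The strongest region, chr6:45655574-45656556 near the 3′ end of the gene, stood at 97.0 in control and 94.3 in HNF4G-KO. Between P1 and P2 the region chr6:45377074-45378623 lay at the start of SUPT3H, a gene of a transcription coactivator complex read from the opposite strand, and stood at 91.5 and 85.3. The largest differences in percentile were -23.6 points at chr6:45607708-45608194 (59.1 to 35.6) and 22.2 points at chr6:45650641-45650930 (14.6 to 36.8). The median over the 19 shared regions was -6.38 points, beside -4.65 over all shared control regions. Of the 19, 6 (31.6%) were at least 10 points lower and 2 (10.5%) at least 10 points higher, beside 33.6% and 7.75% of all.

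RUNX3 had 12 regions in control and 10 in HNF4G-KO, none of them at a promoter. The 2 control-only regions made 16.7% (4.70 to 44.8), against 25.0% of the whole control list. They were chr1:24966729-24966928 at percentile 22.0, 1.82 kb upstream of P1, and chr1:24874828-24875178 at 1.53. No region was KO-only among 10, which allows a share of up to 30%. Of the 10 shared control regions 8 stood lower in HNF4G-KO, with a median of -9.51 points, and 5 of them were at least 10 points lower. The largest difference was at chr1:24955077-24955563, between P1 and P2, which held a RUNX match and stood at 59.9 in control and 34.3 in HNF4G-KO. The only difference above 1 point in the other direction, 7.05 points, was in the same intron, at chr1:24952241-24952768 (31.0 to 38.0). This control region held the HNF4 sequence. Its HNF4G-KO partner began farther along, at chr1:24952497, and its span did not take in the match. Both were searched in the same reference genome, so the span of the region differs here and not the sequence. When percentiles were taken among shared regions alone the RUNX3 median was -1.12 points.

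CBFB had 15 regions in control and 12 in HNF4G-KO. The 5 control-only regions made 33.3% (15.2 to 58.3), an interval that holds the share of the whole list. They were chr16:66978977-66979335 at percentile 42.6, chr16:67104148-67104493 at 40.3, chr16:67068434-67068645 in the CBFB intron at 30.3, chr16:66996512-66996752 near a start of the carboxylesterase gene CES4A at 16.4 and chr16:67014160-67014388 at 12.5. The KO-only region, chr16:67000758-67001139, was also at CES4A and stood at 14.2. Unlike the other 3 loci, CBFB had more shared regions that stood higher in HNF4G-KO (6) than lower (4), with a median of 1.00 point (95% interval of the median -13.0 to 11.6). With 100 kb on each side the CBFB median was -0.732 points over 28 shared regions. The largest difference upward, 18.2 points, was in the promoter itself, at chr16:67029299-67029991 (16.4 to 34.5), and the largest downward, -18.1 points, at chr16:67014892-67015550 (66.2 to 48.1). The strongest region, chr16:67017880-67018471, lay 10.9 kb upstream of the start site at 94.9 and 95.8.

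Over the 4 HPAF-II loci, 32 of 96 shared control regions were at least 10 points lower in HNF4G-KO, or 33.3%, and 7 were at least 10 points higher, or 7.29%. Of all shared control regions 33.6% and 7.75% were. As a group the loci thus stood near the background in this measure.

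Along the KPC loci the picture differed by gene, and Runx3 stood out in the deposited lists. At the 4 mouse loci together 15 of 90 mets regions were mets-only, or 16.7% (10.4 to 25.7), against 20.2% of the whole mets list. In the primary tumor 5 of 77 regions were tumor-only, or 6.49% (2.81 to 14.3), against 8.51%. Of the shared primary tumor regions 24 of 72 were at least 10 points higher in mets, or 33.3%, beside 30.8% of all shared regions, and 9 were at least 10 points lower, or 12.5%, beside 12.4%. Over all 4 loci both shares were again near the background.

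Runx3 had 6 regions in the primary tumor and 11 in mets. The primary tumor list held no region inside the gene body, from P1 to the 3′ end, and mets held 4 there, all mets-only. Of the 11 mets regions 5 were mets-only, or 45.5% (21.3 to 72.0), and 606 of 14697 protein-coding genes with 5 or more mets regions had a higher share. Those 5 were chr4:135079850-135080152 upstream of P1 at percentile 55.7, chr4:135146614-135147116 between P1 and P2 at 47.3, and chr4:135158754-135159263, chr4:135169107-135169436 and chr4:135171547-135171983 downstream of P2 at 13.4, 48.0 and 4.76. The 4 in the gene body were neighbors without a shared region among them. The region at 55.7 was the only member of the KPC loci found in 1 list that lay in the upper 50% of its list, where 4.17% of all mets regions were mets-only.

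All 6 primary tumor regions of Runx3 had a partner in mets, so no region was tumor-only, which with 6 regions allows a share of up to 50%. Of the 6, 5 stood much higher in mets. The region chr4:135191258-135192015, beyond the 3′ end of Runx3, stood at percentile 46.5 in the primary tumor and 99.0 in mets, a difference of 52.5 points. Upstream of P1, chr4:135073456-135073870 stood at 25.8 and 55.9 and chr4:135102350-135102813 at 4.89 and 38.9. Downstream of the gene, chr4:135203282-135204127 stood at 35.0 and 66.3, and chr4:135219709-135219973, in an intron of the chloride channel gene Clic4, at 16.8 and 53.5. The exception, chr4:135206366-135206635, stood at 22.0 and 16.4. The median change was 32.7 points (its 95% interval from 6 regions spans their whole range, -5.59 to 52.5), beside 3.67 over all shared regions. Among 13061 genes with 5 or more shared regions, 11 had a higher median, and windows of neighboring genes overlap. With percentiles among shared regions alone the Runx3 median was 27.3 points, beside 0.988 overall. Both Runx3 promoters themselves had no region in either line.

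**Figure D3:**
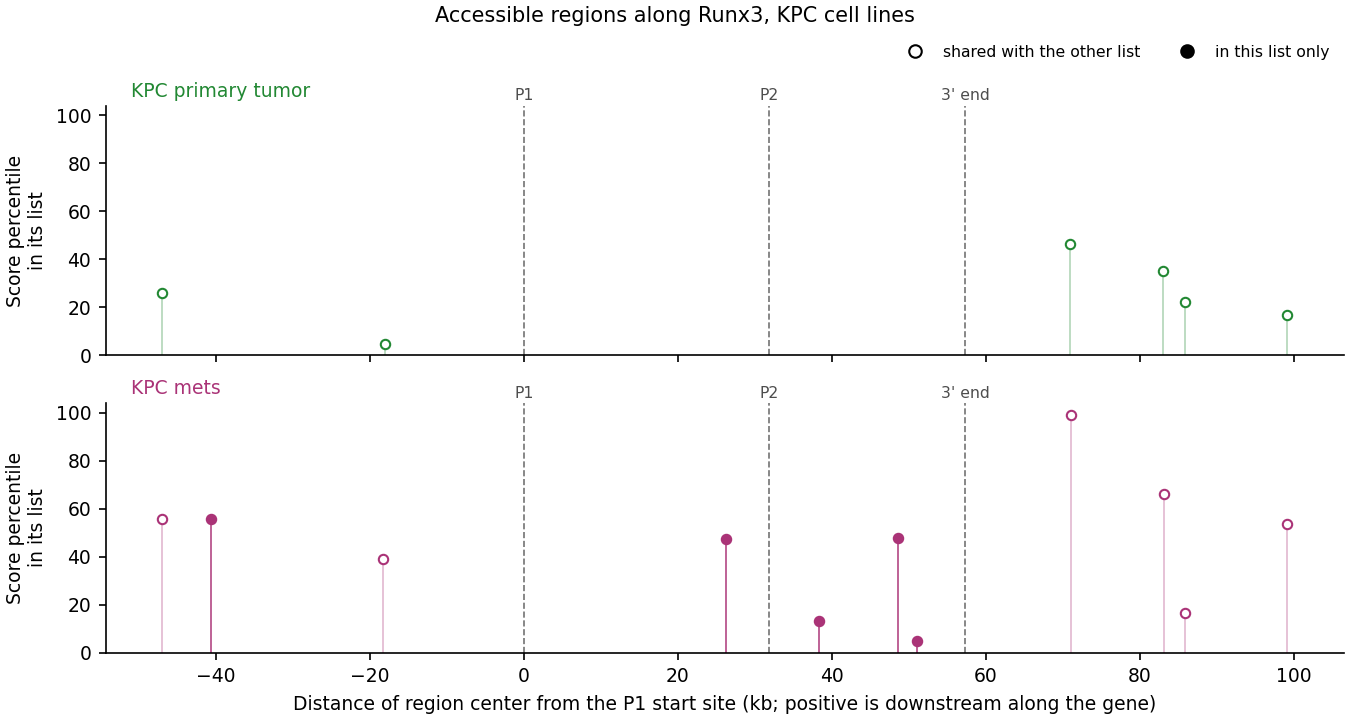
Each accessible region at Runx3 by the distance of its center from the P1 start site (kb, positive along the gene) and its score percentile, KPC primary tumor above and KPC mets below, with filled points for regions found in that list only. The primary tumor panel is empty between P1 and the 3′ end, and the region at about 71 kb stands at 46.5 above and 99.0 below.

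Of the 5 mets-only regions at Runx3, 4 held the RUNX sequence, and they are printed because of it. Each window holds 30 bases on either side of the match on the plus strand of GRCm38, chr4:135080048-135080114, chr4:135146962-135147028, chr4:135169277-135169343 and chr4:135171915-135171981 in that order, with the match in capitals. Among all mets regions 15.5% held the sequence. At the other loci 0 of 6 mets-only regions of Runx1 and 0 of 4 of Runx2 held it. Together the KPC loci thus had it in 4 of 15 mets-only regions, all 4 at Runx3. None of the 6 primary tumor regions at Runx3 did, and 1 of their partners in mets did, over the wider span of chr4:135102019-135102747.
Runx3 upstream of P1: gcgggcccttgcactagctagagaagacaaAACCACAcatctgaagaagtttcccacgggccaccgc
Runx3 between P1 and P2: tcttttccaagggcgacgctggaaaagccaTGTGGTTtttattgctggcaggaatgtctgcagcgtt
Runx3 downstream of P2, stronger: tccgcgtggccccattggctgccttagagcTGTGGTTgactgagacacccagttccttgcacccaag
Runx3 downstream of P2, weaker: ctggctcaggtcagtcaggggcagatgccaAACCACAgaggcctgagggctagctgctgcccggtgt

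Runx1 had 26 regions in the primary tumor and 33 in mets. Its 6 mets-only regions made 18.2% (8.61 to 34.4) and were all weak, from percentile 0.959 to 18.5. In lists cut to like size 0 of 24 Runx1 mets regions were mets-only. The 3 highest were chr16:92710190-92710452 at 18.5, chr16:92615428-92615651 at 11.0 and chr16:92674216-92674415 at 7.68, and the lowest, chr16:92825315-92825551, lay beside P1. The single tumor-only region, chr16:92610583-92610844, stood at 5.56. Shared regions mostly stood higher in mets inside the gene and beyond its 3′ end, and lower in the 5′ flank. From P1 to the 3′ end 16 of 17 shared regions were higher in mets, with a median of 11.0 points. Of all 62280 shared regions 40447 were higher and 21833 lower, with a median of 3.67 points. In the 3′ flank 3 of 4 were higher, with a median of 6.59 points. All 4 in the 5′ flank were lower, with a median of -4.37 points. With percentiles among shared regions alone 13 of the 17 were higher, with a median of 7.00 points, beside 0.988 in all. In lists cut to like size 12 of 17 were, with a median of 4.51 points, beside -0.357 in all. How many of all shared regions were higher was not counted in these last settings. The largest differences were 24.3 points at chr16:92782296-92782837 between P1 and P2 (51.5 to 75.8), then 22.8 points at the P1 region with the pair of RUNX matches. The largest difference downward, -7.86 points, was at the strongest region of the locus, chr16:92841957-92842661, 16.2 kb upstream of P1 (95.4 to 87.5).

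Runx2 had 31 regions in the primary tumor and 32 in mets. Its strongest region in the primary tumor, chr17:44568772-44569816, lay 167 kb downstream of P2, stood at percentile 99.5 there and 96.7 in mets and held 2 RUNX matches. The 3 tumor-only regions were chr17:44797444-44797702 between P1 and P2 at 18.1, chr17:44654435-44654636 at 4.65 and chr17:44734081-44734286 at 0.431. The 4 mets-only regions, or 12.5% (4.97 to 28.1), were chr17:44491552-44491958 at 39.7, chr17:44480160-44480392 at 23.4, chr17:44507950-44508391 at 11.2 and chr17:44555593-44555797 at 2.34. The stronger 2 lay beyond the 3′ end, and with the gene body limited to coding transcripts the share was 4.76% (1 of 21). In lists cut to like size it was 4.00% (1 of 25). The largest differences in percentile were -37.1 points at chr17:44667444-44667793 (45.9 to 8.79) and 25.0 points at chr17:44700177-44700630 (30.5 to 55.5), which held a RUNX match. The median over 28 shared regions was 3.78 points, beside 3.67 over all shared regions. Of the 28, 5 (17.9%) were at least 10 points lower and 8 (28.6%) at least 10 points higher, beside 12.4% and 30.8% of all.

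Cbfb had 14 regions in each KPC list, with the single tumor-only region chr8:105159729-105159951 at percentile 12.3. No region was mets-only, which with 14 regions allows a share of up to 21.4%. Shared regions stood lower in mets in 8 of 13 cases, with a median of -2.25 points, and 1045 of 13061 genes had a lower median. Of all 62280 shared regions 21833 stood lower, with a median of 3.67 points. The largest differences downward were -28.7 points at chr8:105157685-105158438, 12.6 kb upstream of the start site (48.5 to 19.8), and -28.2 points at chr8:105259678-105259994, at the start of Tradd, an adaptor of the tumor necrosis factor receptor (30.4 to 2.15). The largest upward, 15.4 points, was at chr8:105224402-105225769 near D230025D16Rik (54.1 to 69.5). The gene body region chr8:105186454-105187197 was the strongest at 94.4 in the primary tumor.

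**Figure D4:**
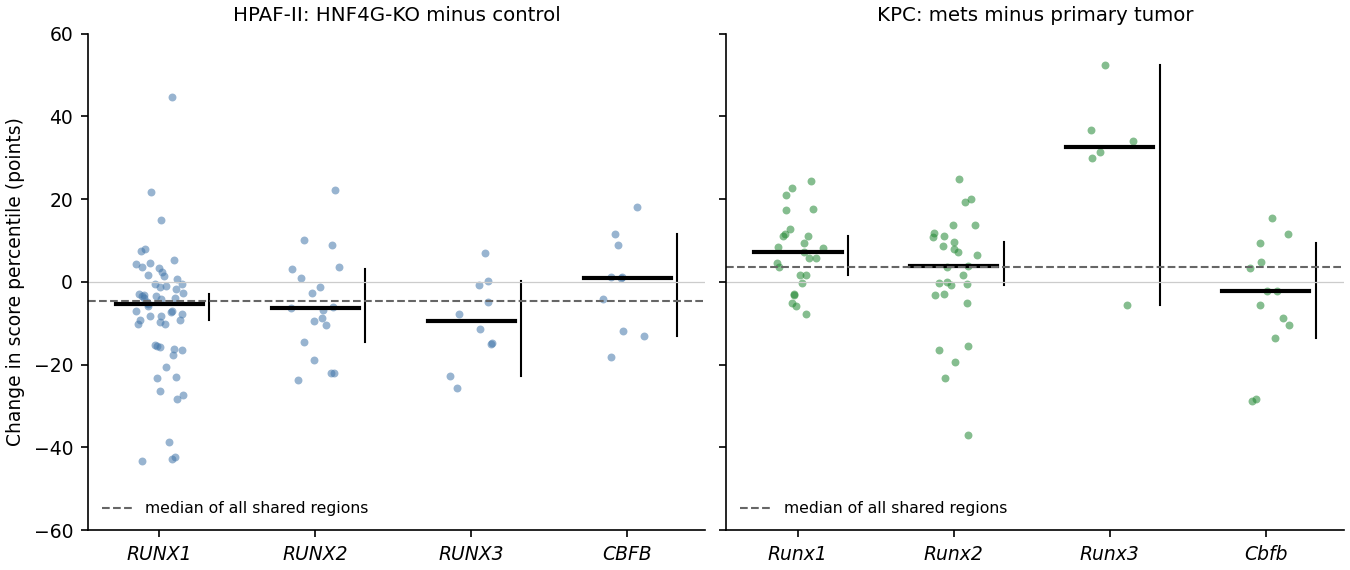
Change in score percentile of each shared region (points) at each locus, HNF4G-KO minus control on the left and mets minus primary tumor on the right, with 1 point per region, thick bars at the medians, thin lines for their 95% interval and a dashed line at the median of all shared regions. Runx3 had 5 of its 6 regions at 30 to 52.5 points, and the medians of the other loci lay nearer the dashed line.

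Counted as TGTGGTT, the RUNX sequence was as frequent at the HPAF-II loci as in the whole lists and more frequent at the KPC loci. It was found in 17 of 151 control members, or 11.3% (7.15 to 17.3), against 11.7% of the control list. In HNF4G-KO the share was 11.4% (12 of 105), the same as in its list. In the primary tumor it was found in 20 of 77 members, or 26.0% (17.5 to 36.7), against 16.3% of the list and 17.2% of regions in the same width deciles. In mets it was found in 24 of 90, or 26.7% (18.6 to 36.6), against 15.5% of the list and 16.1% in the same width deciles. In the primary tumor Runx1 (10 of 26) and Cbfb (5 of 14) held most of these, in mets Runx1 (10 of 33) and Runx3 (5 of 11), and Runx2 was near its list with 5 of 31 and 5 of 32. With the longer sequence TGTGGTTT the shares were lower, 6.62% in control, 5.71% in HNF4G-KO, 10.4% in the primary tumor (5.36 to 19.2) and 12.2% in mets (6.96 to 20.6). The same width deciles gave 4.65%, 4.75%, 6.96% and 6.83%, so the primary tumor interval held its background. Within 200 bp around the region center TGTGGTT was found in 4.64%, 3.81%, 16.9% and 13.3% of members in that order. For this span no share of the whole lists was taken, so these values have no background, and the full-width shares are not one. Regions of 1 locus share their neighborhood and the lists share most regions, so these shares are not independent.

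Among the other sequences, that of AP-1, TGANTCA, is the site of the FOS and JUN factors. It was found in 51.7% of control members against 39.1% of the list and in 51.4% against 39.2% in HNF4G-KO. The primary tumor had 58.4% against 46.0%. In mets it was in 45 of 90 (39.9 to 60.1), an interval that held the 43.7% of the list. Each RUNX locus stood above its list. CBFB stood below it at 26.7% in control and 33.3% in HNF4G-KO, as did Cbfb at 35.7% in the primary tumor and 28.6% in mets. The HNF4 sequence was in 3 control members, of which 2 were at RUNX1 and 1 at RUNX3, and in 1 HNF4G-KO member. These were 1.99% of control members against 1.60% of the list, and 0.952% against 1.40% in HNF4G-KO, both near the background. Among the KPC members it was in 0 of 77 in the primary tumor and 0 of 90 in mets, and 1.48% and 1.28% of those lists held it. The FOXA sequence TGTTTAC (7.95% of control members against 9.76% of the list), the GATA sequence AGATAAG (5.30% against 6.63%), the TEAD sequence ACATTCCA (5.96% against 3.60%) and the ETS sequence CCGGAAGT (0.662% against 1.75%) were in few members. Each sequence was counted on its own, and matches to different sequences may share bases.

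Genes that work with RUNX were described in the same way, as partners or as targets. The 16 cofactors and regulators held 262 control regions, of which 21.4% were control-only, and the 15 targets held 174, of which 18.4% were, both under the 25.0% of the list. TLE3, a Groucho corepressor that RUNX factors recruit, had 8 control-only regions of 16. HIPK2, a kinase of RUNX complexes, had 7 of 21, and WWTR1, the Hippo pathway coactivator TAZ, had 7 of 37. In HNF4G-KO 7.62% and 4.58% were KO-only, with 3 regions each at CBFA2T2 (a corepressor of the ETO family), SMAD3 (a TGF-β signal transducer) and WWTR1. In mets 12.6% of 214 and 7.98% of 163 were mets-only, both under the 20.2% of that list. Tle3 and Wwtr1 had 6 of 21 each and Tle2 5 of 18. In the primary tumor 9.09% and 7.14% were tumor-only, with 4 regions each at Cbfa2t3 and Hipk2 and 3 each at Mpo and Tle4. The median change of a gene's shared regions was below zero from control to HNF4G-KO in 15 of 16 cofactors and 12 of 15 targets, beside an overall median of -4.65. From the primary tumor to mets it was above zero in 12 of 16 and 13 of 15, beside an overall median of 3.67.

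Regions on either side of the 50 kb limit differed in level and in sharing. Just inside it were the CBFB control-only region 49649 bp from the gene, at percentile 42.6, and the Cbfb region 49312 bp away, at 86.8 in the primary tumor. Just outside were a control-only region 50536 bp from RUNX1 at 8.12, a shared region 50805 bp from CBFB at 85.7 and a shared region 50910 bp from Runx1 at 67.7 in the primary tumor.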

How the data were processed

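The deposited files were 4 BED lists, 1 per group, in which the authors gave each region a score on a scale not stated in the sources used here. The submitters' processing notes name Bowtie2 2.2.6, MACS2 2.1.1.20160309 and DiffBind with builds hg38 and mm10, without their roles. The ATAC methods of the study (Omni-ATAC) name HPAF-II only. The study calls the HPAF-II replicates independent and, for ChIP–seq, merged replicate alignments before peak calling. Whether the ATAC–seq lists were made in that way, and whether reads were shifted to the insertion site, are not given in the sources used here. Depth per group is unknown, and its part in which weak regions were listed was not tested.

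No region ran past a chromosome end of hg38 or GRCm38. Gene bodies and start sites came from GENCODE 44 and mouse 21, and coordinates are 1-based. P1 and P2 were told apart by their translation starts, with P2 the start shared by the paralogs and P1 more than 10 kb upstream of it, a detail set after the files were seen. Scores were ranked within their list, with ties at their midpoint, and each region was paired with its longest overlap. Sequences were matched in the full width of each region, in either orientation. Intervals of shares are Wilson 95% intervals and those of medians order statistics. The share that a count of 0 allows is instead 3 divided by the number of regions, a rough limit where regions are few. Overlap and percentile code was tested on simulated regions. The genes named were the members, the 3 highest regions found in 1 list per locus, the largest differences each way and the 3 pathway genes with the most such regions. Members and lists were chosen with earlier results of these data known, and the pathway genes and the marker genes were written from memory. A marker gene withheld from this text is not reported here. Python 3.11.15, numpy 2.4.6 and scipy 1.17.1 were used. With no count or value per replicate, no test was run.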

Additional observations from a re-analysis of the deposited data

How the results depend on the processing

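The alternatives were other overlap limits, score thresholds, lists of like size, the window, the gene body, other start sites, the letters and span of the RUNX search and the percentile scale. Of 228 values for single loci, 208 stayed within the interval of the reported value and 20 moved beyond it. The intervals are wide at loci with few regions, and some alternatives kept the same regions, so staying within says little. The RUNX1 control-only share of 43.6% moved to 31.0% in the upper 50% of both lists and to 26.0% in lists of like size. The CBFB median, whose interval spans zero, changed sign with 100 kb on each side (-0.732), and the RUNX3 control-only share was 50% in the upper 50% of both lists. The control-only share of 36.4% was 27.9% when both lists of a pair were cut to their upper 50% and 23.2% among the strongest regions at 90% of the smaller list, and 22.0% without RUNX1. On the same terms the whole control list gave 22.1% and 13.8%. The tumor-only share was 2.27% in the upper 50% of both lists, beside 8.45% of that whole list, and the mets-only share 7.35% in the lists of like size, where 13.1% of all mets regions were mets-only. The median change at the HPAF-II loci was -1.29 in lists of like size and -0.514 with percentiles among shared regions alone, and at the KPC loci 0.894 in lists of like size. The medians over whole loci therefore depend on list size. The RUNX1 median was -0.88 when its body was limited to the basic transcripts. The Runx3 median ranged from 22.5 to 32.7 in the settings where it could be taken. With 10 kb on each side, and in the upper 50% of both lists, Runx3 had no shared region and so no median. Leaving out RUNX1 or Runx3 and the basic gene bodies were chosen after seeing the data. Depth is unknown, so a missing weak region may be below the calling limit. No paired analysis was possible because each group was 1 list with no value per replicate.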
